A study of Mus musculus with 20 samples.

Results

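Tenocytes, the fibroblasts that build and maintain tendon, were isolated from tail tendon of C57Bl/6 mice, adult and of wild-type genotype, and given recombinant insulin-like growth factor 1 (IGF1) at 100 ng/mL, and their RNA was sequenced. The comparison described here sets the 4 libraries collected after 6 h with IGF1 against the 4 libraries at 0 h, chosen by their labels from the 20 libraries of a course that also sampled 1, 2 and 24 h. Genes are grouped by lists of known pathways, up to 4 called members of each list are named by the size of their change, and further genes, among them nearly all that were not called and the single exceptions of a list, were chosen after their values were seen. Of 29986 genes in the count table, 14420 had enough reads to be tested, and all of them enter the comparison. Whether the 4 libraries at each time stem from different animals or cultures is not stated in the labels, so the p-values measure the spread between these libraries, which may be technical. Cultures kept for 6 h without IGF1 were not analysed here, so the effects of IGF1 and of 6 h in culture cannot be told apart.

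IGF1 acts through a receptor tyrosine kinase, IGF1R, and the adaptors IRS1 and IRS2, which pass the signal to PI3 kinase, AKT and the growth regulator mTORC1, and to the ERK pathway. AKT keeps FoxO transcription factors out of the nucleus, while mTORC1 is known to favour ribosome building, nucleotide synthesis, glucose use and protein synthesis and to hold back autophagy. In tendon, IGF1 is known as a growth signal that raises cell proliferation and matrix production.

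At 6 h the tenocytes had raised the genes of glucose breakdown, ribosome building, nucleotide synthesis, protein folding, protein degradation by the proteasome and entry into S phase. They had lowered FoxO target genes, autophagy and lysosome genes, the IGF1 receptor and its adaptors, and several genes of matrix glycoproteins and of TGF-beta and BMP signalling. A gene was called when its edgeR quasi-likelihood test, adjusted over all 14420 genes by Benjamini-Hochberg, gave p under 0.05, and values are CPM, read counts scaled to the size of each library with edgeR's TMM factors. By that rule 5797 genes (40.2%) were called, of which 2964 (20.6% of those tested) were higher and 2833 (19.6%) were lower at 6 h. The changes were mostly modest: 270 genes (1.87%) were called at least 2-fold higher and 449 genes (3.11%) at least 2-fold lower. The 4 libraries at 6 h lay above all 4 at 0 h for 22.4% of the tested genes and below all 4 for 21.0%. The median log2 fold change over all tested genes was -0.0019.

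**Figure D1:**
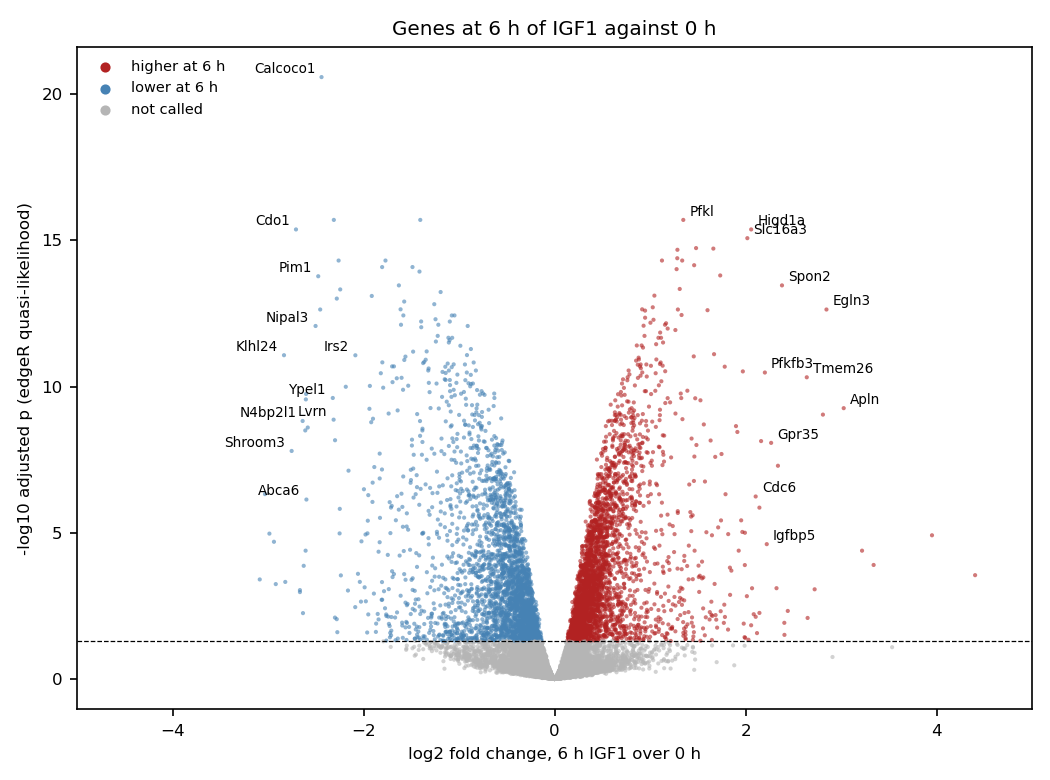
Each point is 1 of the 14420 tested genes; the horizontal axis gives the log2 fold change of 6 h over 0 h and the vertical axis the -log10 of the adjusted p, with the dashed line at 0.05. Red points were called higher at 6 h (2964 genes), blue points lower (2833 genes), and the names mark most of the genes with the largest changes, with Pfkl, Slc16a3 and Irs2 added.

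Total counts lay between 17017386 and 20429931 at 6 h, against 18666812 to 22282231 at 0 h, and mitochondrial transcripts took 1.31 to 1.55% of the counts in the 8 libraries. The first principal component held 51.9% of the variance and separated the 2 times. The second held 10.6% and set replicates 3 and 4 at 0 h apart, on opposite sides of the other 6 libraries. Replicate 1 at 0 h differed more from the other 0 h libraries (chi-square per degree of freedom of 8.82 to 10.4) than those did among themselves (4.04 to 4.33). Without replicate 1, 3 or 4 at 0 h, 5248, 5309 and 5282 genes were called, against 5797 with all. Tenocyte genes were abundant at both times, with Scx at 2341, 2172, 2163 and 2100.2 CPM in the 6 h libraries, against 1792, 1715, 1630.2 and 1807 CPM in the 0 h libraries. Markers of macrophages were present at a low level, and their summed level was 292 to 467 CPM in the 6 h libraries, against 277 to 348 CPM in the 0 h libraries, with none of the 13 tested markers called. The second 6 h library held the most of them, with Lyz2 at 308.5 CPM there, and it also held Ngfr, a Schwann cell marker, at 8.26 CPM, above the other 7 libraries. The defining endothelial markers Pecam1 and Cdh5 were at most 0.66 CPM, and Krt14 of keratinocytes was at 0, in these 8 libraries. Other genes of those marker lists were present. Tek measured 6.56, 5.93, 10.5 and 9.40 CPM in the 6 h libraries, against 36.4, 38.2, 39.6 and 39.7 CPM in the 0 h libraries. Dsp lay between 6.86 and 11.3 CPM in the 8 libraries. Trp63 measured 0.838, 0.931, 0.538 and 1.10 CPM in the 6 h libraries, against 3.61, 3.96, 4.64 and 3.13 CPM in the 0 h libraries, and fell by 2.16 on the log2 scale. The part of these genes in the results was not tested. In such bulk RNA, fewer cells of a type and less RNA per cell cannot be told apart. Replicate 2 at 2 h, which enters the fit and the comparisons with 2 h, held 9.51 CPM of Cdh5 and 43.9 CPM of Ngfr, and a fit without the 2 h group called 6927 genes. The description of the second 0 h library repeats that of the first, but their counts differed by more than sampling noise, so they were counted separately.

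The largest rise was in Apln, which encodes the secreted peptide apelin, a signal for blood vessel growth that is induced by hypoxia (mm10 chromosome X, 48025146 to 48034853, minus strand). Apln measured 52.9, 57.1, 43.2 and 45.9 CPM in the 6 h libraries, against 5.93, 4.62, 8.14 and 5.78 CPM in the 0 h libraries. Every 6 h library lay far above every 0 h library, and the log2 fold change was 3.03 ± 0.20 (SE; adjusted p = 5.45e-10). Egln3, a prolyl hydroxylase that marks HIF proteins for destruction, measured 36.4, 34.7, 36.5 and 32.9 CPM in the 6 h libraries, against 5.14, 4.47, 4.70 and 5.16 CPM in the 0 h libraries, a log2 fold change of 2.85 ± 0.16 (SE; adjusted p = 2.30e-13). Car12, a membrane carbonic anhydrase that handles acid at the cell surface, measured 34.3, 33.3, 29.2 and 31.3 CPM in the 6 h libraries, against 4.45, 6.04, 3.99 and 3.79 CPM in the 0 h libraries, a log2 fold change of 2.81 ± 0.21 (SE; adjusted p = 9.06e-10). For Egln3 and Car12 as well, the libraries of the 2 times did not overlap. For all of these genes the lack of overlap was a condition of their choice.

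The other genes of the 12 with the largest rises were Tmem26 (2.64), the secreted matrix protein Spon2 (2.38), the G protein-coupled receptor Gpr35 (2.27), the IGF-binding protein Igfbp5 (2.22), Pfkfb3 (2.20), Ppp1r3b (2.16), Plekhg4 (2.14), Cdc6 (2.11) and Higd1a (2.06), each value a log2 fold change. Spon2 measured 88.1, 100.3, 73.6 and 83.4 CPM in the 6 h libraries, against 18.8, 16.1, 15.5 and 15.8 CPM in the 0 h libraries. Ppp1r3b directs protein phosphatase 1 to glycogen, and it measured 22.98, 23.7, 24.1 and 20.9 CPM in the 6 h libraries, against 6.02, 5.28, 4.37 and 4.73 CPM in the 0 h libraries. The 12 genes with the largest rises and the 12 with the largest falls were taken from those called, with a mean of 5 CPM or more in the higher group and with no overlap between the libraries. Their lack of overlap, here and below, thus follows from the choice. The risers include Pfkfb3 from the glycolysis list, 4 genes of the hypoxia list, Igfbp5 from the IGF-binding protein list and the replication factor Cdc6.

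Of the pathway lists, glycolysis had the largest median change. Of 23 tested genes of glycolysis and glucose uptake, 20 rose (87.0%, against 20.6% of all tested genes) and 1 fell. At least 2-fold rises were called for 15 of them, and for 1.87% of all tested genes. The median log2 fold change was 1.12, against -0.0019 over all tested genes. Their summed level was 9663 to 9784 CPM in the 6 h libraries, against 4469 to 4743 CPM in the 0 h libraries.

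Pfkfb3 makes fructose 2,6-bisphosphate, the strongest activator of the committed step of glycolysis (mm10 chromosome 2, 11471433 to 11554077, minus strand). It measured 141, 138, 137 and 148 CPM in the 6 h libraries, against 29.6, 31.7, 30.9 and 30.4 CPM in the 0 h libraries, a log2 fold change of 2.20 ± 0.13 (SE; adjusted p = 3.29e-11). The liver-type phosphofructokinase Pfkl, which catalyses that step, measured 476, 475, 470.2 and 461 CPM in the 6 h libraries, against 193, 184, 175 and 188 CPM in the 0 h libraries. Its 4 libraries at 6 h lay close together and far above the 0 h libraries, and its log2 fold change was 1.35 ± 0.05 (SE; adjusted p = 1.98e-16). Slc16a3, the transporter that exports lactate, measured 412, 398, 395 and 365 CPM in the 6 h libraries, against 106, 99.1, 82.2 and 101 CPM in the 0 h libraries, a log2 fold change of 2.02 ± 0.09 (SE; adjusted p = 8.37e-16).

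The remaining steps of the pathway moved together, and the genes given here were picked after their values were seen. Glucose enters through Slc2a1, which measured 277, 286, 283 and 260.1 CPM in the 6 h libraries, against 112, 115, 106 and 119 CPM in the 0 h libraries (log2 fold change 1.29). The first step is taken by hexokinases, and Hk1 measured 280.5, 277, 286 and 286 CPM in the 6 h libraries, against 116, 117, 109 and 114 CPM in the 0 h libraries (log2 fold change 1.31). Both genes kept the 2 times apart in every library. Triose phosphate isomerase, Tpi1, measured 587, 596, 575 and 588 CPM in the 6 h libraries, against 239.8, 232, 217 and 241 CPM in the 0 h libraries (log2 fold change 1.34). Phosphoglycerate kinase, Pgk1, which makes the first ATP of the pathway, measured 293, 299.7, 310.5 and 313 CPM in the 6 h libraries, against 118, 131, 131 and 121 CPM in the 0 h libraries (log2 fold change 1.28). Lactate dehydrogenase A, Ldha, which turns pyruvate into lactate, measured 1449, 1455, 1426 and 1449 CPM in the 6 h libraries, against 592, 591, 578 and 609 CPM in the 0 h libraries (log2 fold change 1.29). In each of these the lowest 6 h library was more than 2 times the highest 0 h library. The log2 fold changes of the other risers lay between 0.42 for the lactate and pyruvate transporter Slc16a1 and 1.26 for Eno2, and included 1.15 for Hk2, 1.12 for Gpi1, 1.11 for Gapdh, 1.06 for Pgam1, 0.90 for Eno1, 0.88 for Pkm and 0.71 for Aldoa. Gapdh, Pgk1, Ldha, Tpi1, Eno1, Pkm and Aldoa are known to have near-identical processed pseudogenes, and how the counting treated shared reads is not given in the sources used here.

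Pyruvate dehydrogenase kinases shut pyruvate out of the mitochondria, and the list's 2 members moved in opposite directions. Pdk1, chosen after its values were seen, measured 162, 158, 159 and 162 CPM in the 6 h libraries, against 73.9, 77.8, 84.7 and 76.4 CPM in the 0 h libraries, a log2 fold change of 1.04 ± 0.06 (SE; adjusted p = 5.18e-13). Pdk4, the form that is raised in fasting by FoxO factors, measured 4.19, 4.07, 5.75 and 3.20 CPM in the 6 h libraries, against 16.5, 16.6, 17.2 and 15.6 CPM in the 0 h libraries, a log2 fold change of -1.94 ± 0.15 (SE; adjusted p = 9.45e-11). For both genes the libraries of the 2 times did not overlap. The muscle-type phosphofructokinase Pfkm was at 37.2, 34.1, 35.3 and 34.7 CPM in the 6 h libraries, against 32.9, 38.4, 32.9 and 34.0 CPM in the 0 h libraries (log2 fold change 0.03, adjusted p = 0.757), and Pfkfb4 was not called either (log2 fold change 0.14, adjusted p = 0.436).

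Of 20 tested hypoxia response genes, 12 rose (60.0%, against 20.6% of all), 9 of them at least 2-fold (1.87% of all tested genes did so), and 2 fell. In a fit to the 8 libraries alone, or without the 2 h group, 4 fell. The median log2 fold change of the list was 0.67. Slc2a1 stands on both lists. Egln1, the main oxygen-sensing prolyl hydroxylase, measured 216, 218, 232 and 211 CPM in the 6 h libraries, against 74.9, 84.5, 83.3 and 75.9 CPM in the 0 h libraries (log2 fold change 1.46). Higd1a, a mitochondrial inner membrane protein induced by hypoxia, measured 166, 171, 169 and 165 CPM in the 6 h libraries, against 35.3, 43.0, 41.7 and 41.3 CPM in the 0 h libraries, a log2 fold change of 2.06 ± 0.09 (SE; adjusted p = 4.20e-16). Bnip3, a mitochondrial protein that promotes mitophagy, measured 100.1, 102, 104 and 106 CPM in the 6 h libraries, against 37.7, 38.6, 36.6 and 37.4 CPM in the 0 h libraries, a log2 fold change of 1.46 ± 0.10 (SE; adjusted p = 9.25e-12). None of these 3 genes overlapped between the times, which for Higd1a follows from its choice among the largest rises.

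Hif1a, the oxygen-regulated transcription factor itself, measured 695, 743, 671 and 659.8 CPM in the 6 h libraries, against 398, 435, 451 and 456 CPM in the 0 h libraries (log2 fold change 0.67). Vegfa, the vascular growth factor, measured 149, 147, 149 and 142 CPM in the 6 h libraries, against 106, 95.8, 90.7 and 98.2 CPM in the 0 h libraries (log2 fold change 0.59). Both rose by less than 2-fold. The 2 members that fell were Mxi1, an antagonist of MYC (log2 fold change -0.50), and Ndrg1 (log2 fold change -0.35). Known hypoxia genes that were not called include Adm (341 to 377 CPM at 6 h, against 382 to 391 CPM at 0 h; adjusted p = 0.168) and Bnip3l (100.1 to 110.1 CPM at 6 h, against 97.1 to 106 CPM at 0 h; adjusted p = 0.948). Hif1a, Vegfa and these 2 pairs were named after their values were seen. Adm was called lower in a fit to the 8 libraries alone, or without the 2 h group. Oxygen and the protein level of HIF1A were not measured.

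**Figure D2:**
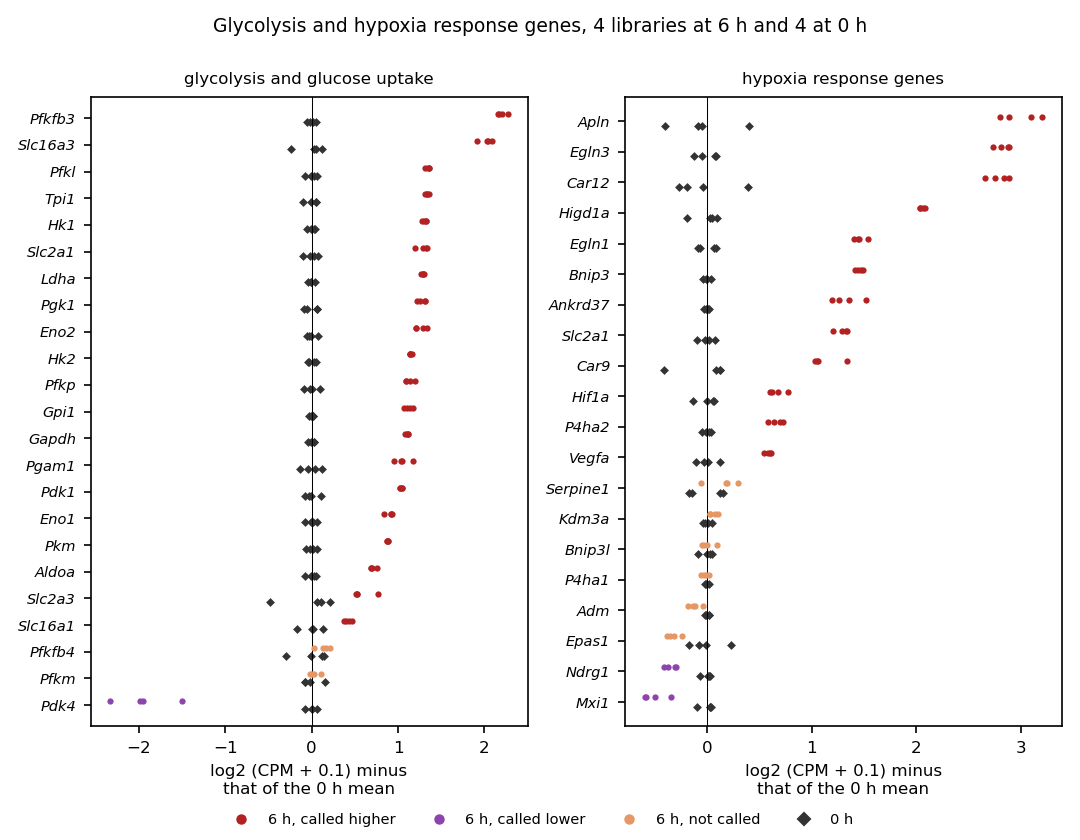
Every tested gene of the glycolysis list (left) and the hypoxia list (right), with the 4 libraries at 6 h as circles and the 4 at 0 h as diamonds; the horizontal axis is log2 of CPM plus 0.1, minus that of the 0 h mean, so 0 is the 0 h level and 1 is 2-fold higher. For 20 of 23 glycolysis genes all 6 h libraries lie to the right of all 0 h libraries, as they do for 22.4% of all tested genes. Pdk4 lies to the left, and the hypoxia genes spread from Apln near 3 to Mxi1 near -0.5.

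The HIF factors bind a short DNA core, ACGTG. Promoter windows of 250 bases before the annotated start (RefSeq, GRCm38.p6) could be matched by current or older symbol for 10162 of the 14420 tested genes. The core stood on either strand in 11 of 22 glycolysis genes with a window (50.0%) and in 11 of 16 hypoxia genes (68.8%), against 25.2% of all tested genes with a window. The longer palindrome CACGTG, which contains this core on both strands and is also the site of MYC and clock factors, stood in 4 of the 22 (18.2%) and 2 of the 16 (12.5%), against 9.91% of all. The core also stood in 9 of 20 chaperones of the endoplasmic reticulum (45.0%) and 6 of 33 ribosome biogenesis factors (18.2%). Among lists that mostly fell, it stood in 9 of 23 autophagy and lysosome genes (39.1%) and 6 of 19 FoxO targets (31.6%). CACGTG stood in 2 of those chaperones, 1 ribosome factor (3.03%), 6 autophagy genes (26.1%) and 4 FoxO targets (21.1%). Neither sequence was thus particular to lists that rose. The hypoxia list was chosen from known hypoxia genes, so its share is not a test. A match is a description of letters and not a bound site. The windows of 3 members that rose are given 5′ to 3′ on the gene's own strand, with the core or its reverse complement in capitals, to show where it falls; they are Bnip3 (chr7:138909507-138909756, minus strand), Pgk1 (chrX:106186850-106187099, plus strand) and Slc16a3 (chr11:120948817-120949066, plus strand).
Bnip3: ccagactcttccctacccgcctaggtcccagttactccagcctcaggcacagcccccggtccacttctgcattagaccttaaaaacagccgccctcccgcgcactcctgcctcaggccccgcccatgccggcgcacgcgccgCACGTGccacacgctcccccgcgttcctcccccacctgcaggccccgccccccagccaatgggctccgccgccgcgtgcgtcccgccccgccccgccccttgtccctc
Pgk1: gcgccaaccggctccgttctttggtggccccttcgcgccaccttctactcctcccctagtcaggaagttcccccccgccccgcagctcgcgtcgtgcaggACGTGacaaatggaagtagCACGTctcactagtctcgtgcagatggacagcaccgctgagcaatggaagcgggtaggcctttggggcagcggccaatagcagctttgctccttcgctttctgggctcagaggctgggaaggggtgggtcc
Slc16a3: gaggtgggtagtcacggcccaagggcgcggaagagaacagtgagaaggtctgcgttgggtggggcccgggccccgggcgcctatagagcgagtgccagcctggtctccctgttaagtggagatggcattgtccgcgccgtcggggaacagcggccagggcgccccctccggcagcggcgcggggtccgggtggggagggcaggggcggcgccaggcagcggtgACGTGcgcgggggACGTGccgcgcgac
In Bnip3 the match is a single CACGTG from 108 to 103 bases before the start, which gives 1 match on each strand. Pgk1 holds 1 match on each strand, and Slc16a3 holds 2 on its own strand within 27 bases of the start.

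Genes of ribosome building rose almost as a block. Of 37 tested ribosome biogenesis factors, 35 rose (94.6%, against 20.6% of all), none fell, and the median log2 fold change was 0.72. Rrp12, which helps export and mature the small ribosomal subunit, measured 59.6, 52.2, 47.5 and 62.8 CPM in the 6 h libraries, against 25.6, 28.2, 22.9 and 22.7 CPM in the 0 h libraries, a log2 fold change of 1.16 ± 0.10 (SE; adjusted p = 3.64e-10). Dkc1, the pseudouridine synthase of small nucleolar RNA complexes, measured 58.0, 60.0, 48.3 and 60.4 CPM in the 6 h libraries, against 26.3, 26.8, 26.1 and 30.0 CPM in the 0 h libraries (log2 fold change 1.05). Nop56, a core protein of the complexes that methylate ribosomal RNA, measured 123, 117, 108 and 112 CPM in the 6 h libraries, against 58.0, 54.7, 55.6 and 57.5 CPM in the 0 h libraries (log2 fold change 1.03). No 6 h library of these 3 genes reached down to the 0 h range. The abundant nucleolar proteins Ncl and Npm1, named after their values were seen, rose by 0.76 and 0.55 on the log2 scale. The 2 members that were not called were Nop10 (adjusted p = 0.18) and the polymerase subunit Polr1c (adjusted p = 0.531).

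The cytosolic ribosomal proteins themselves moved little. Of 42 tested, 9 rose (21.4%, near the 20.6% of all genes), 2 fell, and the median log2 fold change was 0.07. In a fit to the 8 libraries alone 17 rose and 8 fell, and without replicate 1 at 0 h 2 rose and 1 fell. The largest rise was in Rpl35, which measured 66.8, 67.8, 68.5 and 60.8 CPM in the 6 h libraries, against 35.5, 47.4, 42.4 and 52.0 CPM in the 0 h libraries (log2 fold change 0.57). These genes, like Npm1 and Cycs, have many near-identical pseudogenes, which makes their counts uncertain. Of 30 mitochondrial ribosomal proteins 15 rose (50.0%, against 20.6% of all) and 1 fell, with a median log2 fold change of 0.26.

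Of 28 translation factors, 18 rose (64.3%, against 20.6% of all) and 4 fell, with a median log2 fold change of 0.33. Eif4e, which binds the messenger RNA cap and is held back by proteins that mTORC1 inactivates, measured 91.5, 100.2, 98.9 and 93.9 CPM in the 6 h libraries, against 51.5, 54.6, 61.4 and 58.0 CPM in the 0 h libraries, a log2 fold change of 0.77 ± 0.07 (SE; adjusted p = 4.25e-09). Eif2b3, a subunit of the exchange factor that recharges initiation, measured 43.9, 44.3, 38.7 and 43.9 CPM in the 6 h libraries, against 20.1, 25.2, 24.1 and 22.9 CPM in the 0 h libraries (log2 fold change 0.89). Pdcd4, an inhibitor of the helicase eIF4A, went the other way and measured 21.9, 22.2, 26.5 and 26.0 CPM in the 6 h libraries, against 38.5, 40.4, 42.4 and 40.4 CPM in the 0 h libraries (log2 fold change -0.74). The libraries of the 2 times did not overlap for any of the 3. The elongation factor Eef2, named after its value was seen, also fell, to 2255 to 2356 CPM at 6 h, against 3419.7 to 3894 CPM at 0 h (log2 fold change -0.64).

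Genes of nucleotide synthesis rose as well. Of 22 tested enzymes of purine and pyrimidine synthesis, 17 rose (77.3%, against 20.6% of all) and 2 fell, with a median log2 fold change of 0.56. Mthfd1l, a mitochondrial enzyme that supplies formate for purine rings (mm10 chromosome 10, 3973118 to 4167081, plus strand), measured 173, 178, 157 and 170.01 CPM in the 6 h libraries, against 71.2, 67.0, 72.0 and 67.9 CPM in the 0 h libraries, a log2 fold change of 1.28 ± 0.06 (SE; adjusted p = 4.06e-15). Its 6 h libraries were all more than 2 times any 0 h library. Nme1, a nucleoside diphosphate kinase, measured 46.3, 52.7, 49.3 and 59.1 CPM in the 6 h libraries, against 25.5, 22.4, 22.3 and 26.4 CPM in the 0 h libraries (log2 fold change 1.10). Impdh2, the committed enzyme of guanine nucleotide synthesis, measured 78.1, 78.1, 75.0 and 75.2 CPM in the 6 h libraries, against 44.9, 40.8, 42.5 and 43.8 CPM in the 0 h libraries (log2 fold change 0.83). Ppat, which starts purine synthesis, rose by 0.86, and its neighbour Paics, which acts later in the same pathway, fell by 0.73, both on the log2 scale; Paics and Rrm1 were chosen after their values were seen. Ppat shares 6.15% of its exonic bases with Paics on the opposite strand, and whether the counting used strand is not given in the sources used here. Rrm1, a subunit of ribonucleotide reductase, was the other member that fell (log2 fold change -0.51).

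Polyamines are small cations that growing cells make from ornithine, and 6 of 10 tested genes of their metabolism rose (60.0%, against 20.6% of all) and 1 fell. Srm, spermidine synthase, measured 251, 237, 227 and 212 CPM in the 6 h libraries, against 131, 112, 116 and 118 CPM in the 0 h libraries (log2 fold change 0.96). Odc1, the first enzyme of the pathway, measured 127, 131, 117 and 129.9 CPM in the 6 h libraries, against 83.6, 85.4, 83.3 and 85.5 CPM in the 0 h libraries (log2 fold change 0.58). Both were above the 0 h libraries in all 4 libraries. Among 24 subunits and assembly factors of the respiratory chain and ATP synthase, 16 rose (66.7%, against 20.6% of all) and 1 fell, with a median log2 fold change of 0.26. The largest was Cycs, cytochrome c, which measured 29.3, 29.0, 26.5 and 30.1 CPM in the 6 h libraries, against 11.6, 14.7, 14.4 and 16.1 CPM in the 0 h libraries (log2 fold change 1.02).

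The list of Atf4 targets, tRNA synthetases and amino acid transporters was mixed. Of its 36 tested genes, 12 rose (33.3%, against 20.6% of all), 5 fell (13.9%, against 19.6% of all) and the median log2 fold change was 0.07. The falls numbered 3 without replicate 1 at 0 h and 9 in a fit to the 8 libraries alone or without the 2 h group. Psat1, an enzyme of serine synthesis, measured 392, 399, 362 and 397 CPM in the 6 h libraries, against 265, 264, 265 and 308 CPM in the 0 h libraries (log2 fold change 0.49). Shmt2, which moves the serine carbon to folate in mitochondria, measured 245, 233, 238 and 222 CPM in the 6 h libraries, against 184, 158, 169 and 177 CPM in the 0 h libraries (log2 fold change 0.44). Aldh18a1, of proline synthesis, measured 388, 378, 357 and 376 CPM in the 6 h libraries, against 281, 264, 259 and 273 CPM in the 0 h libraries (log2 fold change 0.48). All 3 lay above the 0 h libraries at 6 h. Slc38a2, an amino acid transporter of the same list, fell and measured 386, 391, 371 and 377 CPM in the 6 h libraries, against 503, 505, 541 and 499 CPM in the 0 h libraries (log2 fold change -0.42).

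The proteasome, the cell's main protease, rose as a block of small changes. Of 27 tested subunits, 26 rose (96.3%, against 20.6% of all), none fell, none reached 2-fold, and the median log2 fold change was 0.41. Psmd14, the subunit that removes ubiquitin, measured 124, 131, 129.7 and 123 CPM in the 6 h libraries, against 70.7, 74.4, 76.7 and 75.3 CPM in the 0 h libraries, a log2 fold change of 0.77 ± 0.08 (SE; adjusted p = 1.12e-08). Psmc5, an ATPase of the base, measured 136, 139, 127 and 131 CPM in the 6 h libraries, against 75.0, 84.1, 77.9 and 82.9 CPM in the 0 h libraries (log2 fold change 0.74). The exception was Psmb1, with 133 to 140.4 CPM at 6 h, against 129 to 139 CPM at 0 h (adjusted p = 0.804). The summed level of the list was 3084 to 3201 CPM in the 6 h libraries, against 2285 to 2410 CPM in the 0 h libraries.

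Chaperones of the endoplasmic reticulum, which fold secreted proteins such as collagen, rose in 18 of 23 (78.3%, against 20.6% of all) with none lower and a median log2 fold change of 0.33. In a fit to the 8 libraries alone, or without the 2 h group, 1 was called lower, namely Herpud1. Hyou1 measured 424, 388, 423 and 431 CPM in the 6 h libraries, against 225, 232, 209 and 227 CPM in the 0 h libraries, a log2 fold change of 0.90 ± 0.07 (SE; adjusted p = 4.23e-11). Creld2, a disulphide isomerase of the stress response, measured 109, 98.4, 111 and 103 CPM in the 6 h libraries, against 59.1, 56.2, 50.2 and 61.3 CPM in the 0 h libraries (log2 fold change 0.89). Manf, a secreted stress-responsive factor, measured 270.4, 253, 261 and 285 CPM in the 6 h libraries, against 145, 160.5, 151 and 172 CPM in the 0 h libraries (log2 fold change 0.77). In none of the 3 did the times overlap, and Sdf2l1 rose likewise, by 0.76. Hspa5 (BiP), the major chaperone of the compartment, measured 2843, 2820.0, 3039 and 3029 CPM in the 6 h libraries, against 1789, 1921, 1868 and 1977 CPM in the 0 h libraries (log2 fold change 0.63), and it is named after its value was seen. The transcription factor Xbp1, chosen likewise, rose by 0.39, while Herpud1 was not called (log2 fold change -0.16, adjusted p = 0.0804) and Ddit3 neither (log2 fold change 0.09, adjusted p = 0.476).

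The response element of such chaperones, bound by ATF6 with NF-Y, reads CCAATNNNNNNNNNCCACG. The same windows of 250 bases were searched on both strands. The element stood in 7 of 20 ER chaperone genes with a window (35.0%), against 0.167% of all tested genes with a window. These 7 were Calr, Canx, Creld2, Dnajc3, Hsp90b1, Hspa5 and Pdia6. The list was chosen from known ER chaperones, the genes for which this element is known, so its share is not a test. The windows of Hspa5 (chr2:34771840-34772089, plus strand) and Creld2 (chr15:88819396-88819645, plus strand) are given because both genes rose, with the element in capitals; it lies on the opposite strand in Creld2 and overlaps an ACGTG core in neither.
Hspa5: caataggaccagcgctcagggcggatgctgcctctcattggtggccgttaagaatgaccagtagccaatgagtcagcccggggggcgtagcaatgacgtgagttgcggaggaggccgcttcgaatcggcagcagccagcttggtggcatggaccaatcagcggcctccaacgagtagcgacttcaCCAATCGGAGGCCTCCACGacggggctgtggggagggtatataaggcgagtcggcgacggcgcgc
Creld2: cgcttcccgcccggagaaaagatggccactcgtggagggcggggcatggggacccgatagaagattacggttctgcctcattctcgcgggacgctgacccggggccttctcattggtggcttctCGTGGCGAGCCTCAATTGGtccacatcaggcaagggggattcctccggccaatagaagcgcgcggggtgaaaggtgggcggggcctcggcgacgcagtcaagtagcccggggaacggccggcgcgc
The element starts 65 bases before the start in Hspa5 and lies from 126 to 108 bases before it in Creld2. Of the 7 genes that hold it, Pdia6 was not called (log2 fold change 0.12, adjusted p = 0.181), and Calr and Hsp90b1 rose by 0.17 each, calls that were lost without replicate 4 at 6 h.

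Heat shock proteins of the cytosol and mitochondria rose in 15 of 22 (68.2%, against 20.6% of all) and fell in 2, with a median log2 fold change of 0.35. Hspd1, the mitochondrial chaperonin HSP60, measured 334, 351, 339.99 and 337 CPM in the 6 h libraries, against 163, 173, 191 and 179 CPM in the 0 h libraries, a log2 fold change of 0.95 ± 0.06 (SE; adjusted p = 4.39e-13). Cct3, of the ring that folds actin and tubulin, measured 325, 346, 318 and 324 CPM in the 6 h libraries, against 191, 197, 205 and 207 CPM in the 0 h libraries (log2 fold change 0.72). Hsp90aa1 measured 348, 351, 366 and 374 CPM in the 6 h libraries, against 225, 238, 242 and 244 CPM in the 0 h libraries (log2 fold change 0.60). Every 6 h library of the 3 exceeded every 0 h library. The 2 that fell were Hspb1 (log2 fold change -0.34) and Hsph1 (log2 fold change -0.14), named after their values were seen; without replicate 1 at 0 h, or without replicate 2 at 6 h, neither was called.

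Genes of G1 and S phase rose, while those of mitosis were rarely called. Of 30 tested G1 and S genes, 26 rose (86.7%, against 20.6% of all), 8 of them at least 2-fold (1.87% of all tested genes did so). None fell, and the median log2 fold change was 0.56. Cdc6, which loads the replicative helicase onto DNA (mm10 chromosome 11, 98907801 to 98923940, plus strand), measured 4.98, 4.65, 5.97 and 6.14 CPM in the 6 h libraries, against 1.11, 1.98, 0.546 and 1.37 CPM in the 0 h libraries, a log2 fold change of 2.11 ± 0.27 (SE; adjusted p = 5.72e-07). Its level was low at both times, and the lack of overlap follows from its choice among the largest rises. Ccne1, cyclin E1, which starts S phase with CDK2, measured 20.8, 20.6, 21.6 and 22.6 CPM in the 6 h libraries, against 7.74, 9.09, 5.74 and 9.04 CPM in the 0 h libraries (log2 fold change 1.43). Uhrf1, which maintains DNA methylation at replication, measured 18.2, 17.3, 18.8 and 20.7 CPM in the 6 h libraries, against 7.23, 7.67, 6.23 and 4.92 CPM in the 0 h libraries (log2 fold change 1.53). The libraries of the 2 times were apart for both. Ccne2 rose by 1.41, and it shares 17.4% of its exonic bases with Ints8 on the opposite strand. The helicase subunits Mcm3 and Mcm5, named after their values were seen, rose by 1.10 and 1.14.

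Among 24 tested genes of G2 phase and mitosis, 1 rose and 1 fell (4.17% each, against 20.6% higher and 19.6% lower of all tested genes), and the median log2 fold change was 0.03; without replicate 2 at 0 h, 4 rose and none fell. The proliferation marker Mki67 measured 15.6, 13.6, 15.9 and 17.7 CPM in the 6 h libraries, against 13.9, 17.3, 14.5 and 12.1 CPM in the 0 h libraries, and the times overlapped (log2 fold change 0.12, adjusted p = 0.602). Ccnb1, cyclin B1, stood at 3.90, 3.14, 3.66 and 4.62 CPM in the 6 h libraries, against 2.73, 3.50, 3.50 and 2.75 CPM in the 0 h libraries, also with overlap (log2 fold change 0.30, adjusted p = 0.199). The summed level of the mitotic list was 136 to 161 CPM in the 6 h libraries, against 125 to 167 CPM in the 0 h libraries. Brakes on the cycle fell in 5 of 10 tested genes (50.0%, against 19.6% of all) and rose in 1. Rbl2, the RB relative p130 that keeps cells quiescent, measured 21.1, 20.2, 22.7 and 22.4 CPM in the 6 h libraries, against 50.1, 49.6, 45.9 and 45.1 CPM in the 0 h libraries, a log2 fold change of -1.14 ± 0.09 (SE; adjusted p = 5.93e-11). Cdkn2b (p15) measured 55.4, 53.2, 62.4 and 54.2 CPM in the 6 h libraries, against 93.4, 97.3, 83.4 and 88.4 CPM in the 0 h libraries (log2 fold change -0.69), and Cdkn1b (p27) measured 53.01, 56.4, 52.3 and 54.0 CPM in the 6 h libraries, against 69.7, 71.0, 81.6 and 76.1 CPM in the 0 h libraries (log2 fold change -0.47). No library overlapped between the times for these 3 genes. Rbl1 (p107), an E2F target itself, was the one that rose (log2 fold change 0.63).

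The largest fall was in Klhl24, an adaptor of a ubiquitin ligase for keratin filaments in skin and a FoxO-responsive gene (mm10 chromosome 16, 20097542 to 20129221, plus strand). It measured 12.5, 12.3, 16.3 and 16.1 CPM in the 6 h libraries, against 95.6, 103, 105 and 104 CPM in the 0 h libraries, a log2 fold change of -2.83 ± 0.15 (SE; adjusted p = 8.42e-12). All 6 h libraries were far below the lowest 0 h library. Calcoco1, an autophagy receptor for the endoplasmic reticulum (mm10 chromosome 15, 102706777 to 102722178, minus strand), had the smallest adjusted p of all genes and measured 18.8, 20.4, 20.6 and 19.0 CPM in the 6 h libraries, against 117, 107, 103 and 101 CPM in the 0 h libraries, a log2 fold change of -2.44 ± 0.06 (SE; adjusted p = 2.59e-21). Cdo1, cysteine dioxygenase, which breaks down cysteine, measured 3.90, 4.07, 4.73 and 3.62 CPM in the 6 h libraries, against 28.0, 24.5, 22.9 and 31.3 CPM in the 0 h libraries, a log2 fold change of -2.71 ± 0.11 (SE; adjusted p = 4.20e-16). Neither of these overlapped between the times, which, as for Klhl24, follows from the choice of the largest falls.

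The rest of the 12 largest falls comprised the actin-binding protein Shroom3 (-2.75), N4bp2l1 (-2.64), Fam169b (-2.61), the coenzyme Q kinase Adck3 (-2.60), the lipid transporter Abca6 (-2.60), Nipal3 (-2.50), the kinase Pim1 (-2.48), Ypel1 (-2.32) and the peptidase Lvrn (-2.32), each a log2 fold change. Shroom3 measured 13.3, 10.5, 13.2 and 9.29 CPM in the 6 h libraries, against 86.7, 79.6, 75.8 and 71.0 CPM in the 0 h libraries. Pim1, a survival kinase made in response to cytokines through STAT3 and STAT5, measured 5.52, 6.17, 6.35 and 5.72 CPM in the 6 h libraries, against 35.2, 32.3, 30.2 and 34.4 CPM in the 0 h libraries. Both were separated between the times in all libraries, as the choice of the largest falls required.

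FoxO target genes fell in 16 of 22 (72.7%, against 19.6% of all), 9 of them at least 2-fold (3.11% of all tested genes did so). The median log2 fold change was -0.69. The list includes Klhl24, Irs2, Cdkn1b, Insr and Rbl2. Fbxo32 (atrogin-1), a ubiquitin ligase of muscle wasting, measured 3.11, 4.07, 6.56 and 5.72 CPM in the 6 h libraries, against 15.99, 15.9, 16.4 and 18.3 CPM in the 0 h libraries, a log2 fold change of -1.78 ± 0.44 (SE; adjusted p = 0.00381). Pik3ip1, an inhibitor of PI3 kinase, measured 12.4, 10.004, 14.04 and 13.3 CPM in the 6 h libraries, against 40.4, 41.4, 38.8 and 39.3 CPM in the 0 h libraries, a log2 fold change of -1.68 ± 0.12 (SE; adjusted p = 2.03e-11). Both were below every 0 h library. Txnip, which limits glucose uptake, measured 79.6, 78.2, 88.0 and 79.6 CPM in the 6 h libraries, against 198, 169, 192 and 198 CPM in the 0 h libraries (log2 fold change -1.22), and Klf15 measured 10.4, 11.6, 11.4 and 10.1 CPM in the 6 h libraries, against 32.3, 27.0, 31.4 and 27.0 CPM in the 0 h libraries (log2 fold change -1.44), both named after their values were seen.

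Ddit4 (REDD1), an inhibitor of mTORC1 that hypoxia and stress also induce, was the one list member that rose, and it measured 96.6, 91.5, 86.0 and 84.6 CPM in the 6 h libraries, against 27.1, 27.7, 27.0 and 26.0 CPM in the 0 h libraries, a log2 fold change of 1.73 ± 0.09 (SE; adjusted p = 1.58e-14). The antioxidant enzymes of the list were not called: Sod2 was at 50.3 to 57.0 CPM at 6 h, against 46.7 to 50.5 CPM at 0 h (adjusted p = 0.0727) and Cat at 76.2 to 87.5 CPM at 6 h, against 82.3 to 91.2 CPM at 0 h (adjusted p = 0.133). The FoxO core GTAAACA stood within 250 bases before the start of 4 of 19 list members with a window (21.1%), against 2.78% of all tested genes with a window. Txnip and Bbc3 were among these 4, while Klhl24, Irs2, Fbxo32 and Klf15 were not. The list was chosen from known FoxO targets, many of which have such a site, so its share is not a test.

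Autophagy and lysosome genes fell in 17 of 28 (60.7%, against 19.6% of all) and rose in 1, with a median log2 fold change of -0.23. Gabarapl1, a protein that coats the growing autophagosome, measured 61.6, 60.3, 73.8 and 66.8 CPM in the 6 h libraries, against 155, 152, 146 and 148 CPM in the 0 h libraries, a log2 fold change of -1.19 ± 0.06 (SE; adjusted p = 5.82e-14). Map1lc3b (LC3B), of the same family, measured 92.6, 98.2, 105 and 105 CPM in the 6 h libraries, against 189, 187, 179 and 181 CPM in the 0 h libraries, a log2 fold change of -0.88 ± 0.07 (SE; adjusted p = 3.96e-11). Mitf, a transcription factor that drives lysosome genes, measured 9.27, 10.6, 10.003 and 9.34 CPM in the 6 h libraries, against 21.2, 19.8, 23.4 and 20.9 CPM in the 0 h libraries (log2 fold change -1.12). No 0 h library reached the 6 h range for any of the 3. Atg14, of the kinase complex that starts the autophagosome, fell by 0.84. The cargo receptor Sqstm1 (p62) and the autophagy gene Wipi1, named after their values were seen, fell by 0.45 and 0.78. Sqstm1 shares 17.3% of its exonic bases with Mrnip on the opposite strand. The one riser was Atg5 (log2 fold change 0.28), and the initiating kinase gene Ulk1 was not called (log2 fold change -0.20, adjusted p = 0.0524).

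**Figure D3:**
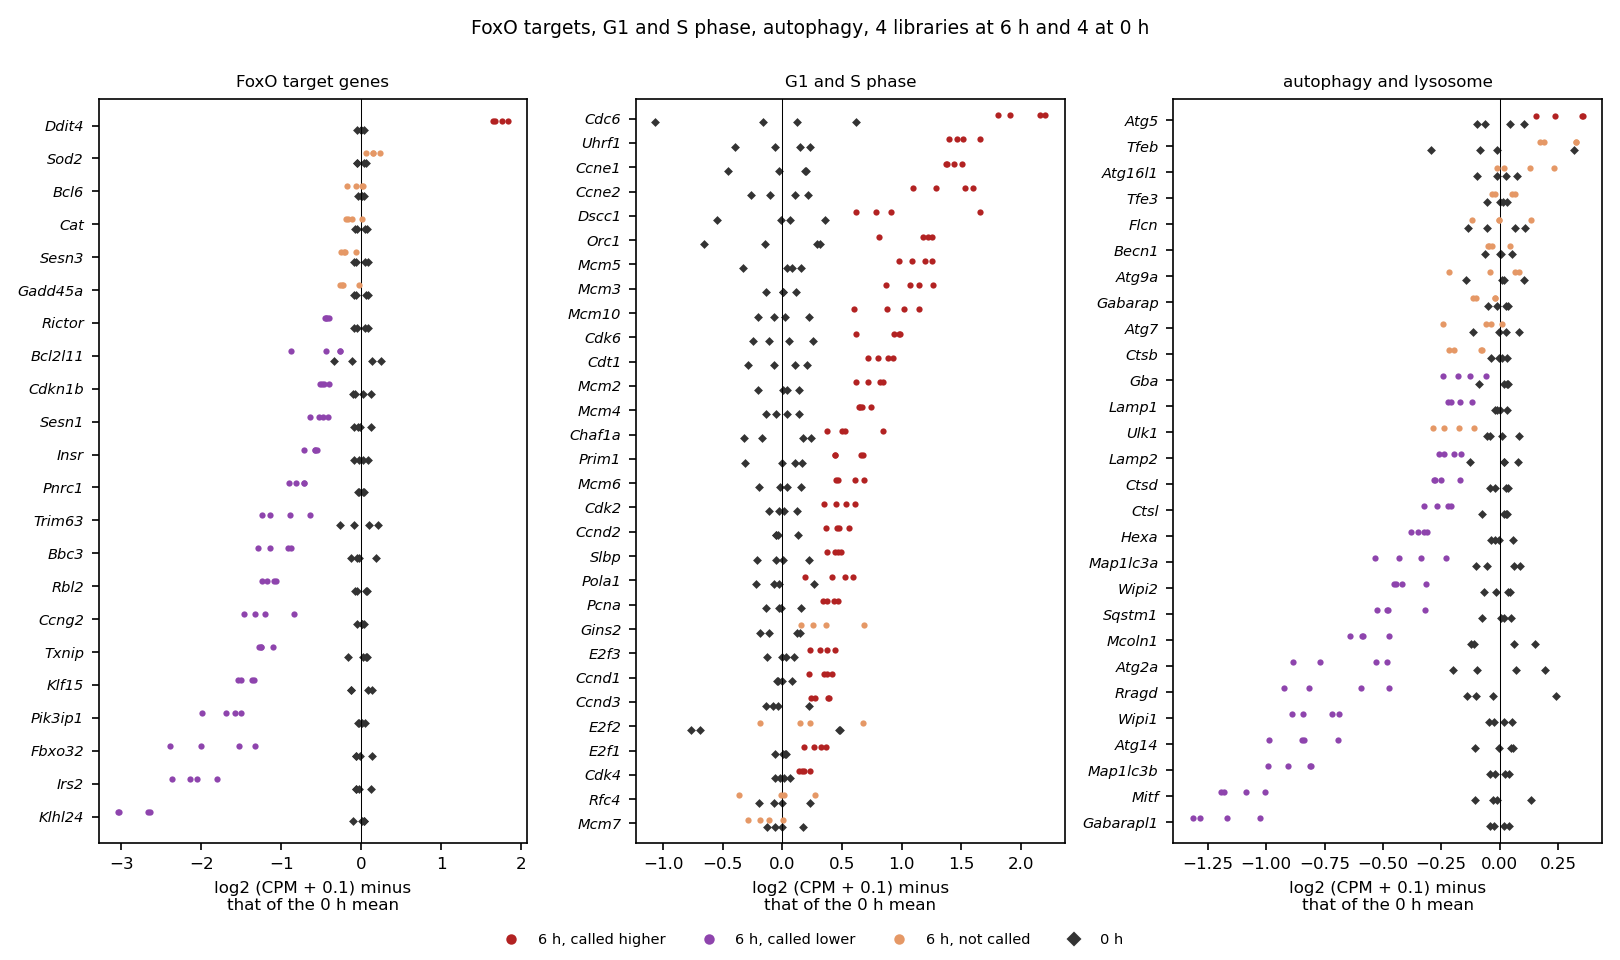
Every tested gene of the FoxO target list (left), the G1 and S phase list (middle) and the autophagy and lysosome list (right), with the 4 libraries at 6 h as circles and the 4 at 0 h as diamonds; the horizontal axes give log2 of CPM plus 0.1, minus that of the 0 h mean, and their ranges differ. FoxO targets reach -2.83 for Klhl24 with Ddit4 the only called gene on the right, the 26 called G1 and S genes lie to the right on average, and the called autophagy genes, apart from Atg5, lie to the left, down to a mean of -1.19 for Gabarapl1.

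The receiving end of the pathway was lower. Of 10 tested IGF ligands, receptors and adaptors, 6 fell (60.0%, against 19.6% of all), none rose, and the median log2 fold change was -0.40. Irs2, the adaptor that FoxO factors induce, measured 9.07, 8.55, 10.8 and 7.24 CPM in the 6 h libraries, against 41.5, 36.3, 37.3 and 36.3 CPM in the 0 h libraries, a log2 fold change of -2.09 ± 0.14 (SE; adjusted p = 8.48e-12). Igf1r measured 116, 105, 109.98 and 104 CPM in the 6 h libraries, against 171, 214, 179 and 203 CPM in the 0 h libraries, a log2 fold change of -0.82 ± 0.08 (SE; adjusted p = 1.04e-08). Insr, the insulin receptor, measured 51.1, 52.1, 46.4 and 51.3 CPM in the 6 h libraries, against 71.6, 80.7, 75.2 and 77.6 CPM in the 0 h libraries (log2 fold change -0.60). The libraries of the 2 times were apart for all 3, and for Irs1, which measured 55.6, 49.96, 56.5 and 52.7 CPM in the 6 h libraries, against 95.9, 98.7, 84.1 and 88.3 CPM in the 0 h libraries (log2 fold change -0.77). The tenocytes' own Igf1 measured 186, 196, 185 and 182 CPM in the 6 h libraries, against 180.3, 202, 208 and 190.5 CPM in the 0 h libraries, and the times overlapped (log2 fold change -0.06 ± 0.06, adjusted p = 0.441).

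IGF-binding proteins hold IGF1 outside the cell, and pappalysins cut some of them to release it. Of 10 such genes 4 rose (20.6% of all tested genes did) and 3 fell (30.0%, against 19.6% of all), with a median log2 fold change of -0.006. The falls numbered 2 when replicate 1 or 4 at 6 h, or replicate 1 or 4 at 0 h, was left out. Igfbp5 measured 268, 329, 276 and 275 CPM in the 6 h libraries, against 53.6, 64.3, 70.6 and 57.7 CPM in the 0 h libraries, a log2 fold change of 2.22 ± 0.31 (SE; adjusted p = 2.44e-05). Pappa measured 11.1, 11.2, 9.57 and 8.66 CPM in the 6 h libraries, against 25.7, 24.6, 26.0 and 33.8 CPM in the 0 h libraries and Pappa2 measured 2.86, 2.09, 4.41 and 3.52 CPM in the 6 h libraries, against 9.55, 9.44, 9.18 and 7.29 CPM in the 0 h libraries, with log2 fold changes of -1.44 and -1.46. Stc1, stanniocalcin 1, which blocks Pappa, measured 5.77, 5.99, 5.65 and 5.77 CPM in the 6 h libraries, against 0.788, 2.08, 1.91 and 1.23 CPM in the 0 h libraries (log2 fold change 1.95). So, of the genes named by the size of their change, Igfbp5 and Stc1 were higher and Pappa and Pappa2 were lower, in every library. Igfbp3, chosen after its values were seen, also rose, by 0.39.

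Of 33 tested genes of PI3 kinase, AKT and mTOR signalling itself, 6 rose (18.2%) and 8 fell (24.2%), near the 20.6% and 19.6% of all tested genes, and the median log2 fold change was -0.10. In a fit to the 8 libraries alone 12 fell, and without the 2 h group 13. Deptor, an inhibitor within the mTOR complexes, measured 6.02, 4.19, 7.10 and 5.98 CPM in the 6 h libraries, against 9.59, 10.0003, 9.67 and 12.3 CPM in the 0 h libraries (log2 fold change -0.83). It fell without overlap between the times. Pik3r3, a regulatory subunit of PI3 kinase named after its value was seen, rose by 0.72. The genes Akt1, Mtor and Pdpk1 were not called, with log2 fold changes of -0.10, 0.00 and -0.06.

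Of 27 tested genes of cholesterol synthesis and uptake, 15 rose (55.6%, against 20.6% of all) and 2 fell, none rose 2-fold, and the median log2 fold change was 0.35. Hsd17b7 measured 105, 105, 110.4 and 100.04 CPM in the 6 h libraries, against 60.0, 76.7, 68.6 and 72.2 CPM in the 0 h libraries (log2 fold change 0.60), and its libraries did not overlap between the times. Abca1, which pumps cholesterol out of the cell, measured 8.38, 9.66, 8.28 and 7.82 CPM in the 6 h libraries, against 32.4, 33.9, 31.3 and 34.4 CPM in the 0 h libraries, a log2 fold change of -1.95 ± 0.21 (SE; adjusted p = 5.15e-07). All 6 h libraries of Abca1 were well below every 0 h library. The other member that fell was Insig1, which restrains the pathway and was chosen after its values were seen (log2 fold change -0.40). Of 16 fatty acid genes 9 rose (56.2%, against 20.6% of all) and 2 fell (12.5%, against 19.6% of all). The rises were led by the elongase Elovl6, which measured 87.1, 87.6, 82.4 and 91.0 CPM in the 6 h libraries, against 38.5, 42.5, 39.3 and 38.1 CPM in the 0 h libraries, a log2 fold change of 1.14 ± 0.08 (SE; adjusted p = 3.10e-12).

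Immediate early genes, which respond within the first hour or so of a growth signal, were called in both directions at 6 h. Of 26, 7 were higher than at 0 h (26.9%, against 20.6% of all) and 11 lower (42.3%, against 19.6% of all). Nr4a1, a nuclear receptor of this class, averaged 12.4, 34.6, 12.5, 3.82 and 5.32 CPM at 0, 1, 2, 6 and 24 h, and its 6 h level was 3.90, 3.72, 4.25 and 3.41 CPM in the 6 h libraries, against 12.6, 14.3, 11.3 and 11.5 CPM in the 0 h libraries (log2 fold change -1.70). Egr3 followed a like course, averaging 2.38, 12.3, 7.10, 0.989 and 1.05 CPM at 0, 1, 2, 6 and 24 h, with a log2 fold change at 6 h of -1.26 ± 0.26 (SE; adjusted p = 0.000315). Both were thus below the starting level at 6 h, with no overlap between the times. Fosl1 (FRA1) was still raised and measured 40.7, 36.1, 38.9 and 34.4 CPM in the 6 h libraries, against 12.001, 14.1, 10.1 and 11.0 CPM in the 0 h libraries (log2 fold change 1.67), but it shares 57.2% of its exonic bases with Ccdc85b on the opposite strand.

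ERK feedback regulators rose in 9 of 16 (56.2%, against 20.6% of all) and fell in 1. In a fit to the 8 libraries alone 4 fell, and without the 2 h group or without a filter on low counts 2 did. Dusp6, a phosphatase of ERK, measured 11.4, 11.2, 14.04 and 11.9 CPM in the 6 h libraries, against 6.02, 7.56, 5.52 and 7.58 CPM in the 0 h libraries (log2 fold change 0.86). Spry4, a Sprouty inhibitor, measured 15.3, 15.5, 15.3 and 14.6 CPM in the 6 h libraries, against 6.90, 11.7, 6.72 and 7.34 CPM in the 0 h libraries (log2 fold change 0.89). Dusp1 fell and measured 25.2, 23.2, 31.5 and 27.2 CPM in the 6 h libraries, against 70.7, 69.4, 62.9 and 62.6 CPM in the 0 h libraries, a log2 fold change of -1.31 ± 0.11 (SE; adjusted p = 1.54e-10). Hbegf, a ligand of the EGF receptor, was still above its starting level, at 85.9, 78.9, 88.5 and 78.8 CPM in the 6 h libraries, against 34.4, 43.1, 33.7 and 44.6 CPM in the 0 h libraries, with means of 38.9, 155, 170.1, 83.0 and 33.9 CPM at 0, 1, 2, 6 and 24 h. None of these 4 overlapped between 6 h and 0 h.

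Tendon identity genes did not move as one. Of 15 tested, 2 rose (13.3%, against 20.6% of all) and 5 fell (33.3%, against 19.6% of all). Scx, the transcription factor of the tendon lineage, averaged 1736, 4136, 4354, 2194 and 1577 CPM at 0, 1, 2, 6 and 24 h, and was higher at 6 h than at 0 h in every library by a log2 fold change of 0.34 ± 0.11 (SE; adjusted p = 0.0158). Mkx, a homeobox factor needed for tendon collagen, measured 160.3, 176, 152 and 151 CPM in the 6 h libraries, against 221, 212, 239 and 236 CPM in the 0 h libraries, a log2 fold change of -0.51 ± 0.07 (SE; adjusted p = 3.61e-06). Every 6 h library of Mkx lay below the 0 h range. Comp also fell, to 138 to 193 CPM at 6 h, against 186 to 250 CPM at 0 h, and its times overlapped. Col1a2, described below, was a further list member that fell. Tnmd, tenomodulin, a marker of mature tenocytes, measured 239, 270.3, 176 and 194 CPM in the 6 h libraries, against 193, 178, 227 and 209.996 CPM in the 0 h libraries, with overlap between the times (log2 fold change 0.12 ± 0.17, adjusted p = 0.609). Egr1, a transcription factor of tendon that is also an immediate early gene, measured 47.9, 46.0, 91.3 and 74.3 CPM in the 6 h libraries, against 28.0, 32.6, 26.3 and 27.6 CPM in the 0 h libraries (log2 fold change 1.18), and the first and the second 6 h libraries were well below the other two.

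The major collagen genes differed little between the times. Col1a1 measured 28221, 25774, 24648 and 26657 CPM in the 6 h libraries, against 34596, 28871, 27699 and 29462 CPM in the 0 h libraries (log2 fold change -0.20 ± 0.11, adjusted p = 0.169). Col1a2, of the same fibril, measured 21113, 20084, 18920.2 and 20388 CPM in the 6 h libraries, against 27196, 23876, 23633 and 24461 CPM in the 0 h libraries (log2 fold change -0.30 ± 0.09, adjusted p = 0.00803). Col3a1 measured 2839.7, 2663, 2969 and 2864 CPM in the 6 h libraries, against 2328, 2276, 2241 and 2288 CPM in the 0 h libraries (log2 fold change 0.31 ± 0.08, adjusted p = 0.00321). So Col1a2 fell and Col3a1 rose, both by less than 2-fold, while Col1a1 was called as lower in a fit to the 8 libraries alone (adjusted p = 0.0231). Of 11 fibrillar collagens, 3 rose (27.3%, against 20.6% of all) and 4 fell (36.4%, against 19.6% of all). Col5a3 measured 57.4, 58.7, 51.9 and 56.6 CPM in the 6 h libraries, against 21.5, 18.6, 20.1 and 16.8 CPM in the 0 h libraries (log2 fold change 1.54), and Col24a1 measured 3.25, 2.91, 5.27 and 3.46 CPM in the 6 h libraries, against 10.5, 8.17, 8.19 and 10.4 CPM in the 0 h libraries (log2 fold change -1.32). The 2 went opposite ways with no overlap between the times.

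Collagen VI, a beaded filament around cells, was higher. Col6a3 measured 1214, 1189, 847 and 1169 CPM in the 6 h libraries, against 557, 473, 497 and 494 CPM in the 0 h libraries, a log2 fold change of 1.13 ± 0.15 (SE; adjusted p = 1.12e-05), and replicate 3 at 6 h was below the other three. Col6a2 rose by 0.35, and Col6a1, chosen after its values were seen, by 0.29. Among 21 genes that modify and cross-link collagen, 5 rose (23.8%, near the 20.6% of all) and 2 fell (6 fell in a fit to the 8 libraries alone, and 1 fell without replicate 3 at 6 h, or without replicate 1 or 4 at 0 h). Plod2, a lysyl hydroxylase that hypoxia induces, measured 210.02, 211, 215 and 223 CPM in the 6 h libraries, against 94.4, 109, 93.4 and 101 CPM in the 0 h libraries, a log2 fold change of 1.11 ± 0.08 (SE; adjusted p = 1.49e-11). P4ha2, a prolyl hydroxylase, rose by 0.66, and Loxl2 by 0.54. Lox, the main lysyl oxidase of collagen, measured 11003, 10697, 11157 and 10761 CPM in the 6 h libraries, against 12882, 14269.7, 14189.5 and 14234 CPM in the 0 h libraries and fell by 0.35 on the log2 scale.

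Matrix glycoproteins and elastic fibre genes fell in 13 of 28 (46.4%, against 19.6% of all) and rose in 2, and the median log2 fold change was -0.23. The falls numbered 8 when replicate 3 or replicate 4 at 6 h, or replicate 1 at 0 h, was left out. Thbs1, thrombospondin 1, which activates latent TGF-beta, measured 6490.0, 5956, 6126 and 5974 CPM in the 6 h libraries, against 12351, 13351, 12923 and 12977 CPM in the 0 h libraries, a log2 fold change of -1.07 ± 0.10 (SE; adjusted p = 5.90e-09). Fbn2, fibrillin 2, went the other way and measured 36.0, 38.7, 31.3 and 40.4 CPM in the 6 h libraries, against 15.3, 16.4, 18.4 and 13.5 CPM in the 0 h libraries, a log2 fold change of 1.20 ± 0.16 (SE; adjusted p = 5.19e-06). Neither overlapped between the times. Of 19 proteoglycan and hyaluronan genes 5 rose (26.3%) and 4 fell (21.1%), near the shares of all tested genes, and 2 fell when replicate 1, 3 or 4 at 6 h, or replicate 3 or 4 at 0 h, was left out. Vcan, versican, which swells the matrix around moving cells, measured 238, 216, 197 and 223 CPM in the 6 h libraries, against 98.7, 117, 119.9 and 116 CPM in the 0 h libraries (log2 fold change 0.95). Cd44, the hyaluronan receptor, measured 272, 262, 273 and 254 CPM in the 6 h libraries, against 117, 142, 119.9 and 152 CPM in the 0 h libraries (log2 fold change 1.00), and the hyaluronan synthase Has2 rose by 0.85. Prelp, which anchors collagen to basement membranes, fell by 0.63.

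Of 23 metalloproteinases and inhibitors, 3 were higher (13.0%, against 20.6% of all) and 5 lower (21.7%, near the 19.6% of all). In a fit to the 8 libraries alone 6 were higher. Adamts5, which cuts aggrecan and versican, measured 486, 421, 545 and 513 CPM in the 6 h libraries, against 1179, 1362, 1260.5 and 1301 CPM in the 0 h libraries, a log2 fold change of -1.38 ± 0.09 (SE; adjusted p = 1.57e-11). Mmp11 measured 21.3, 19.4, 22.96 and 25.1 CPM in the 6 h libraries, against 48.2, 47.1, 43.8 and 48.2 CPM in the 0 h libraries (log2 fold change -1.08), and Adamts15 measured 5.67, 6.05, 7.05 and 6.09 CPM in the 6 h libraries, against 1.58, 2.13, 2.62 and 2.89 CPM in the 0 h libraries (log2 fold change 1.43). The 2 times did not overlap for these. Integrins, the receptors that hold cells to matrix, fell in 7 of 16 (43.8%, against 19.6% of all) and rose in 2. Itgb8, which activates TGF-beta, measured 7.40, 6.34, 8.77 and 8.82 CPM in the 6 h libraries, against 18.7, 23.7, 22.1 and 23.96 CPM in the 0 h libraries (log2 fold change -1.50), and Itga1 measured 23.5, 23.7, 20.4 and 20.4 CPM in the 6 h libraries, against 39.9, 43.9, 41.6 and 42.3 CPM in the 0 h libraries (log2 fold change -0.93). Both were lower in all 4 libraries.

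TGF-beta pathway genes fell in 11 of 22 (50.0%, against 19.6% of all) and rose in 3, with a median log2 fold change of -0.21. Ctgf, a matricellular target of TGF-beta and YAP, measured 132, 120.2, 201 and 154 CPM in the 6 h libraries, against 395, 517, 423 and 493 CPM in the 0 h libraries, a log2 fold change of -1.59 ± 0.20 (SE; adjusted p = 6.22e-06). Tgfb3, the ligand, measured 232, 216, 217 and 217 CPM in the 6 h libraries, against 361, 367, 347 and 346 CPM in the 0 h libraries (log2 fold change -0.69), and Smad3, its transcription factor, measured 163, 147, 153 and 160.2 CPM in the 6 h libraries, against 226, 214, 207 and 203 CPM in the 0 h libraries (log2 fold change -0.45). All 3 were below the 0 h range. Genes of actin and of SRF or YAP targets fell in 8 of 20 (19.6% of all tested genes did) and rose in 1. Among the falls were Amotl2 (log2 fold change -0.66) and Lats2 (log2 fold change -0.62).

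BMP and activin genes fell in 11 of 22 (50.0%, against 19.6% of all) and rose in 5 (22.7%, near the 20.6% of all). Nog, noggin, a secreted BMP antagonist, measured 6.95, 7.04, 7.15 and 6.09 CPM in the 6 h libraries, against 28.8, 22.3, 22.7 and 23.2 CPM in the 0 h libraries, a log2 fold change of -1.83 ± 0.18 (SE; adjusted p = 1.96e-08). Fst, follistatin, which binds activin, measured 26.8, 22.6, 24.5 and 27.3 CPM in the 6 h libraries, against 71.6, 75.3, 85.8 and 81.3 CPM in the 0 h libraries, a log2 fold change of -1.63 ± 0.09 (SE; adjusted p = 3.45e-14). Bmp4 measured 16.3, 15.99, 21.4 and 20.8 CPM in the 6 h libraries, against 49.4, 44.7, 43.4 and 43.7 CPM in the 0 h libraries (log2 fold change -1.28). All of these were lower with no overlap. Grem1, another BMP antagonist, was higher instead and measured 36.3, 36.9, 38.8 and 36.0 CPM in the 6 h libraries, against 12.4, 16.3, 13.2 and 17.0 CPM in the 0 h libraries (log2 fold change 1.33). Id1, a BMP target, was named after its value was seen and rose by 1.15.

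Of 21 inflammatory genes 10 were higher (47.6%, against 20.6% of all) and 4 lower (19.0%, near the 19.6% of all). Ccl2, which attracts monocytes, measured 114, 128, 122 and 129.7 CPM in the 6 h libraries, against 53.9, 67.5, 71.0 and 67.0 CPM in the 0 h libraries (log2 fold change 0.93), and its means were 64.9, 177, 279.9, 123 and 42.0 CPM at 0, 1, 2, 6 and 24 h. Ptges, prostaglandin E synthase, measured 28.4, 31.5, 27.2 and 27.0 CPM in the 6 h libraries, against 11.4, 14.3, 13.9 and 13.0 CPM in the 0 h libraries (log2 fold change 1.12). Both were above every 0 h library. LIF and IL6 family signalling fell in 8 of 16 (50.0%, against 19.6% of all) and rose in none (20.6% of all tested genes did). The falls were led by Pim1. Pim3 measured 10.5, 9.77, 11.5 and 10.4 CPM in the 6 h libraries, against 28.4, 21.1, 23.6 and 22.7 CPM in the 0 h libraries (log2 fold change -1.19), and Socs2, an inhibitor of growth hormone and cytokine receptors, measured 30.5, 28.1, 29.5 and 31.0 CPM in the 6 h libraries, against 45.0, 47.3, 48.9 and 55.7 CPM in the 0 h libraries (log2 fold change -0.72). Both were lower at 6 h in all libraries. Of 12 genes of the BCL2 family 4 fell (33.3%, against 19.6% of all) and 1 rose (8.33%, against 20.6% of all), with a median log2 fold change of -0.02. The pro-death member Bbc3 (PUMA) measured 9.02, 7.74, 9.30 and 6.93 CPM in the 6 h libraries, against 19.5, 16.8, 16.4 and 15.6 CPM in the 0 h libraries (log2 fold change -1.05), and Bmf fell by 1.75 from a low level. Bak1, also pro-death, was the riser (log2 fold change 0.53), and it shares 18.2% of its exonic bases with Ggnbp1 on the opposite strand. Of 20 p53 targets, 7 rose (35.0%, against 20.6% of all) and 6 fell (30.0%, against 19.6% of all).

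**Figure D4:**
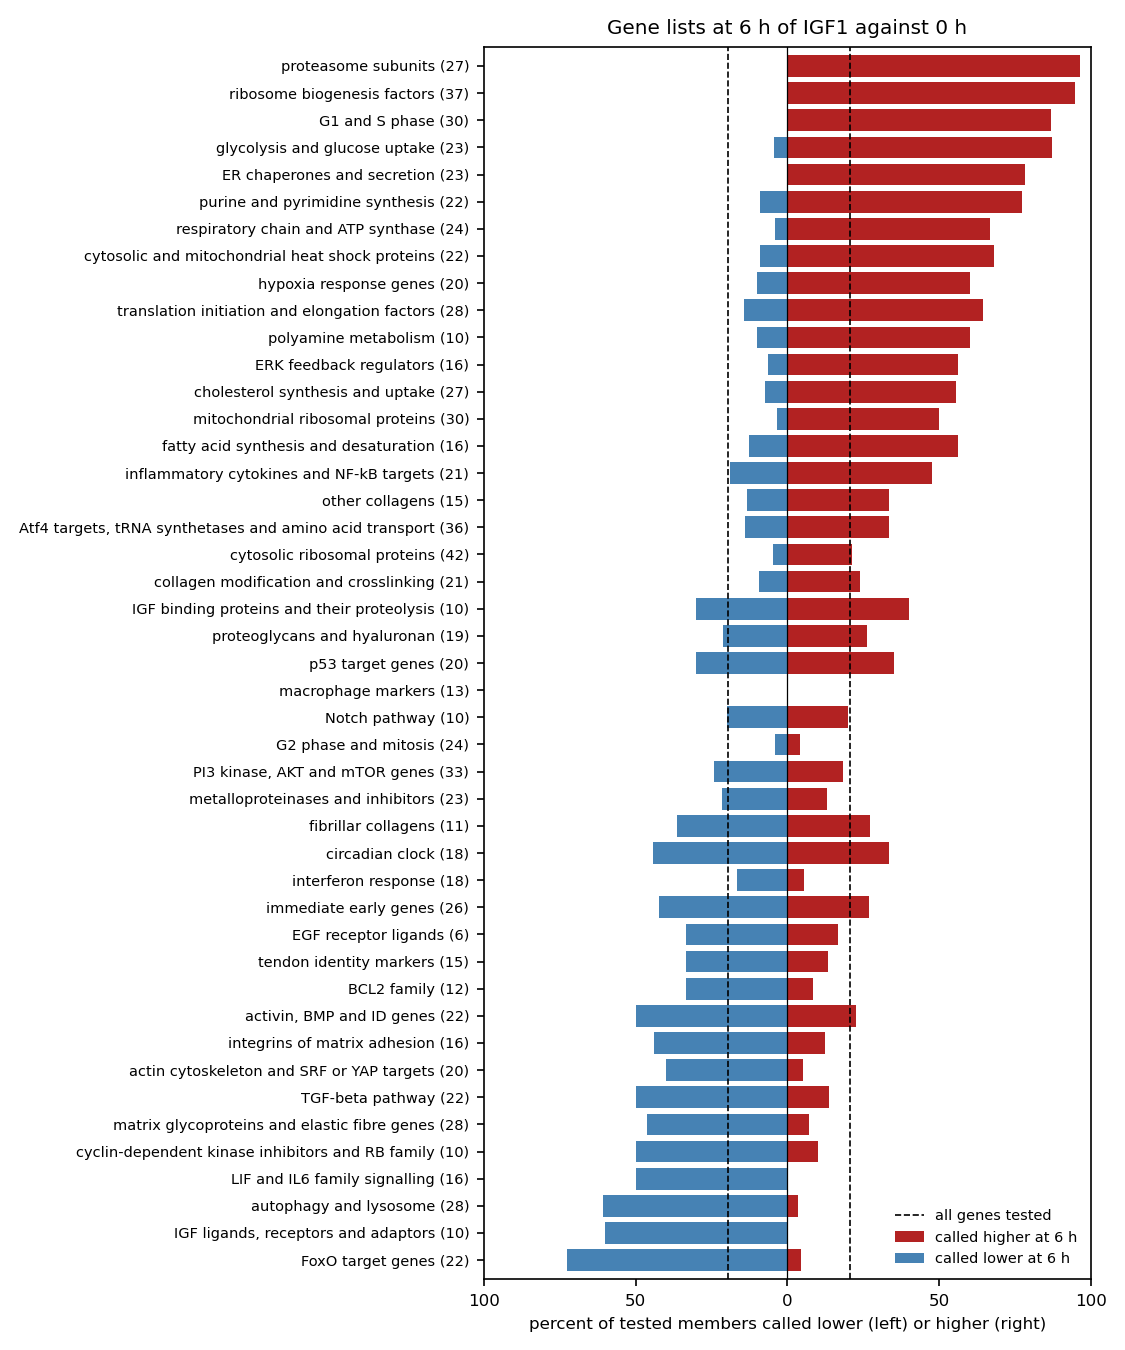
Each bar shows the percent of a list's tested members (number in brackets) called higher (right, red) or lower (left, blue) at 6 h against 0 h; the dashed lines mark the 20.6% and 19.6% of all tested genes called in each direction. Proteasome, ribosome biogenesis, G1 and S phase and glycolysis stand at the top, and FoxO targets, the IGF axis and autophagy at the bottom.

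A set of genes stood at a level of its own at 6 h, called in the same direction against each of 0, 1, 2 and 24 h. This held for 625 genes at their highest (4.33% of those tested) and 496 at their lowest (3.44%). Of the 23 glycolysis genes 16 were at their highest, as were 13 of 37 ribosome biogenesis factors, 13 of 23 ER chaperones, 12 of 22 nucleotide enzymes and 10 of 22 heat shock proteins. Pfkl averaged 185, 195, 250.03, 470.3 and 163 CPM at 0, 1, 2, 6 and 24 h, and Slc16a3 averaged 96.9, 125, 194, 393 and 81.1 CPM at 0, 1, 2, 6 and 24 h, so that both were no longer raised at 24 h. Hyou1 averaged 223, 219, 235, 416 and 195 CPM at 0, 1, 2, 6 and 24 h, and at 2 h it was not called against 0 h (adjusted p = 0.412).

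The genes that stood highest above all other times were Car12, Gpr35, Mgarp, Mthfd1l, Bnip3, Tmem26, Prelid2 and Higd1a. Car12 averaged 4.57, 4.08, 7.05, 32.0 and 10.6 CPM at 0, 1, 2, 6 and 24 h, and Mgarp, a mitochondrial protein of steroid-forming and hypoxic cells, averaged 5.09, 4.47, 7.70, 19.0 and 4.88 CPM at 0, 1, 2, 6 and 24 h. Mthfd1l averaged 69.5, 65.7, 73.7, 169 and 76.5 CPM at 0, 1, 2, 6 and 24 h. For these 3 the 1 h and 2 h means were far closer to the 0 h mean than to the 6 h mean. They were chosen for a large difference between 6 h and every other time, so this distance follows partly from the choice. Those lowest against all other times were Ypel1, Nipal3, Calcoco1, Adck3, Tcp11l2, Wbscr27, Abca6 and Tek. Calcoco1 averaged 107, 96.1, 78.2, 19.7 and 66.1 CPM at 0, 1, 2, 6 and 24 h, and Tek, the angiopoietin receptor known from endothelial cells, averaged 38.5, 37.3, 21.02, 8.09 and 23.8 CPM at 0, 1, 2, 6 and 24 h. The defining endothelial markers Pecam1 and Cdh5 were at most 0.66 CPM in the 8 libraries at 6 h and 0 h, too low to be tested. Of the 28 autophagy and lysosome genes, 7 were at their lowest at 6 h, among them Gabarapl1, which averaged 150.2, 127, 108, 65.6 and 131 CPM at 0, 1, 2, 6 and 24 h.

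**Figure D5:**
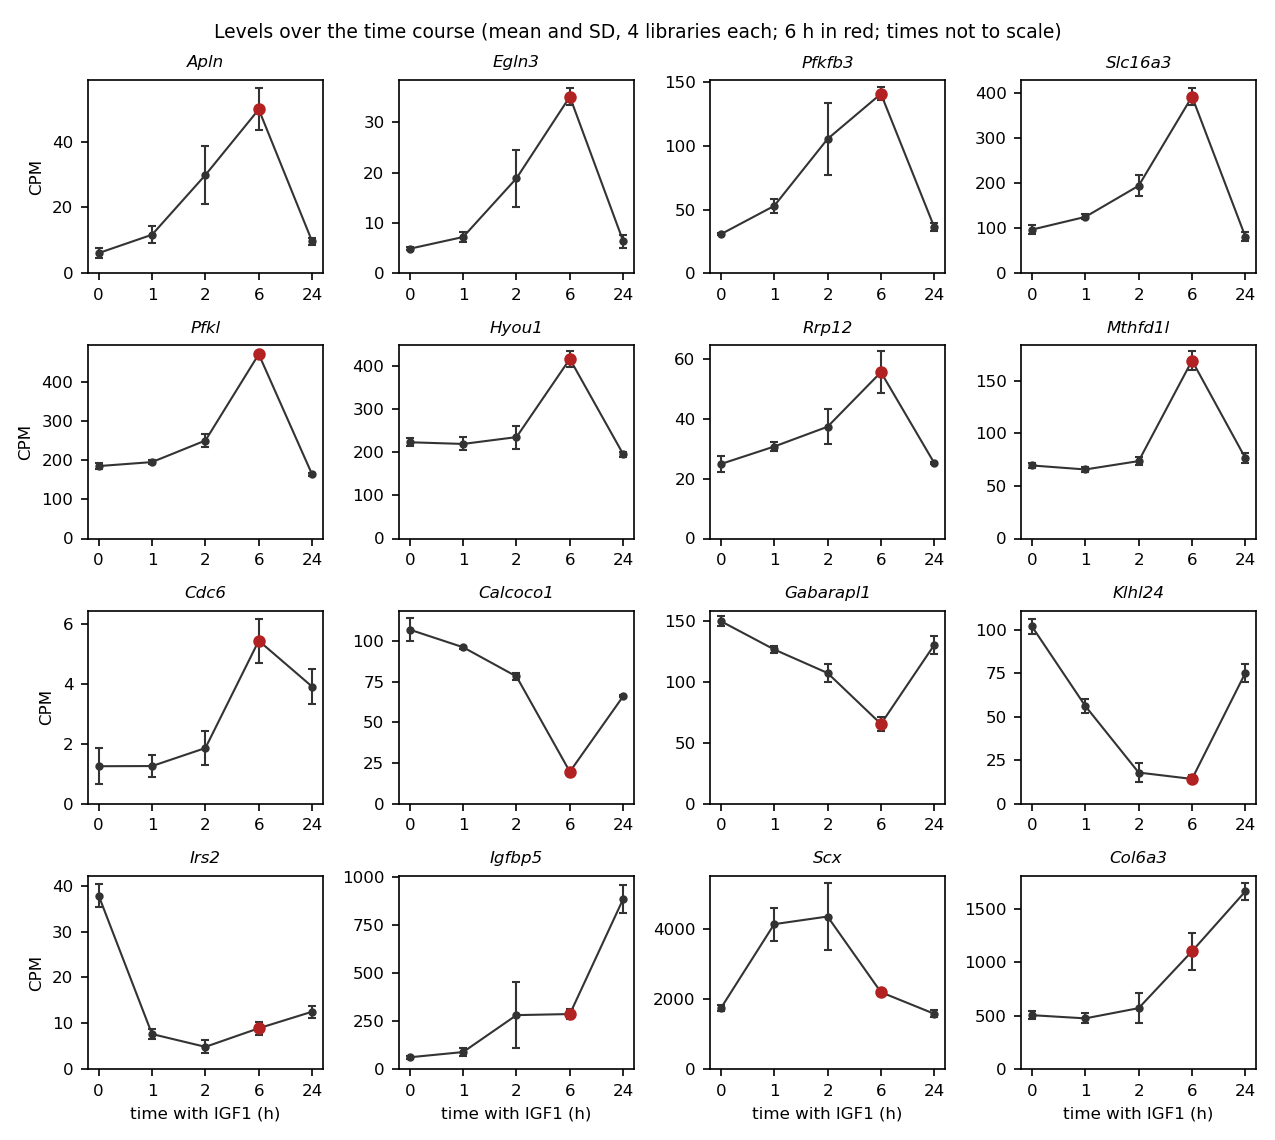
Mean CPM with SD over 4 libraries at 0, 1, 2, 6 and 24 h for 16 genes, with the 6 h mean in red; the times are spaced evenly, not to scale, and each panel has its own vertical axis from 0. Glycolysis, hypoxia, ribosome and chaperone genes (upper rows) have their highest mean at 6 h, Calcoco1 and Gabarapl1 are lowest there, Irs2 and Klhl24 are already low at 2 h, Scx is highest at 1 and 2 h, and Igfbp5 and Col6a3 are highest at 24 h.

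The authors' deposited table of the same comparison lists 12207 genes and calls 5636 of them, 2860 higher and 2776 lower. Both the authors' deposited table and the test used here called 5502 genes, all with the same sign. They make up 97.6% of the calls in the authors' deposited table and 94.9% of the calls made here.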

How the data were processed

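RNA from 20 tenocyte libraries, 4 at each of 0, 1, 2, 6 and 24 h, was sequenced, and the authors deposited whole-number read counts per gene together with their own edgeR table of log2 fold changes and p-values between times. FastQC, STAR and edgeR and the mm10 build are named, per the submitters' processing notes. Neither the counter, its annotation nor its strand setting is given in the sources used here. Exons of 32 of the genes named overlap those of an antisense gene, 7 of them over more than 10% of their exonic bases, and reads of such pairs may not be separated. Positions come from a GENCODE annotation of mouse matched by gene identifier.

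From the counts, edgeR 4.0.16 (R 4.3.3, limma 3.58.1) kept genes by its filterByExpr function, scaled libraries by TMM and fitted a quasi-likelihood model with 1 coefficient per time to all 20 libraries. The fit tested 6 h minus 0 h, and 6 h minus each other time for genes with a level of their own at 6 h. Adjusted p-values are Benjamini-Hochberg over all tested genes. The script was tested on simulated data. Depth sets the precision, and low genes such as Cdc6 rest on few reads. No clear pairing by replicate number was seen. Deviations of same-numbered libraries correlated by -0.063 to 0.081, against -0.055 to 0.067 for other pairs. Such correlations cannot tell whether same-numbered libraries share an animal or culture.

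The members and the gene lists were chosen with earlier results of these data known. Named genes are the 12 largest rises and 12 largest falls (mean of 5 CPM or more, no overlap), up to 4 called members of each list with the largest change, 8 highest and 8 lowest of those with a level of their own, and 11 fixed genes; some of these are not reported here and the others were chosen after their values were seen. Alternatives were RLE scaling, other filters on low counts, DESeq2 1.42.0, a replicate block, fewer libraries, a term for the level of macrophage markers, and leaving out each library.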

Additional observations from a re-analysis of the deposited data

Results flagged for a closer look

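In 27 of 440 groups of 4 libraries, the highest or the lowest library stood apart from the other three by more than Dixon's criterion allows; chance alone flags about 1 group in 20. All values are CPM, set beside the range of the other three libraries of the same time. No explanation was tested. In replicate 1 at 6 h, Ifit2 at 19.1 (others 26.99 to 27.3) and Tgfb3 at 232 (others 216 to 217) stood apart. In replicate 2 at 6 h, Igfbp5 at 329 (others 268 to 276), Lyz2 at 308 (others 201 to 218) and Ngfr at 8.26 (others 1.13 to 1.68) stood apart. In replicate 3 at 6 h, Aldoa at 1300.4 (others 1233 to 1241), Bak1 at 59.96 (others 51.5 to 52.96), Col6a3 at 847 (others 1169 to 1214), Eif2b3 at 38.7 (others 43.9 to 44.3), Psat1 at 362 (others 392 to 399) and Txnip at 87.98 (others 78.2 to 79.6) stood apart. In replicate 1 at 0 h, Amotl2 at 1252 (others 1083 to 1106), Eef2 at 3894 (others 3419.7 to 3499), Lox at 12882 (others 14189.5 to 14269.7), Mxi1 at 25.4 (others 27.7 to 27.9), Nog at 28.8 (others 22.3 to 23.2) and Npm1 at 442 (others 499.8 to 507) stood apart. In replicate 2 at 0 h, Plekhg4 at 0.609 (others 1.48 to 1.58) and Spry4 at 11.7 (others 6.72 to 7.34) stood apart. In replicate 3 at 0 h, Ifit1 at 33.1 (others 11.4 to 12.1) and Slc38a2 at 541 (others 499 to 505) stood apart. In replicate 4 at 0 h, Deptor at 12.3 (others 9.59 to 10.0003), Dkc1 at 29.97 (others 26.1 to 26.8), Pappa at 33.8 (others 24.6 to 26.01), Pappa2 at 7.29 (others 9.18 to 9.55), Psat1 at 308 (others 264 to 265) and Rrm1 at 100.05 (others 94.02 to 94.9) stood apart.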

How the results depend on the processing

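Over 16 alternatives no gene named above changed direction with a call, and 3457 of 3502 gene values kept their direction and their side of the threshold. Leaving out 1 library at a time gave 5117 to 5309 called genes (5797 with all), of which 2663 to 2727 were higher and 2454 to 2584 lower, and 880 to 1100 had a level of their own (1121 with all). The other alternatives gave 5534 to 6947 called genes. The most came from the fit to the 8 libraries alone, and the fewest from no filter on low counts. The alternatives that kept every time gave 896 to 1179 genes with a level of their own, the fewest with the term for macrophage markers. With a replicate block 5752 genes were called, and the block ended no call of a named gene. No clear pairing by number was seen, and 1 of the 4 numbers was the best match of its own pair. DESeq2 called 5969 genes.

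Calls of 5 named genes were lost under at least 1 alternative, namely Calr, Hsp90b1, Hsph1, Hspb1 and Mx1. Ulk1 passed under several alternatives (adjusted p = 0.0482 with the replicate block). Adm, Akt1, Herpud1, Pdia6 and Sod2 did so both in the fit to the 8 libraries alone and without the 2 h group. The cause was not tested. The fit to the 8 libraries also moved list counts: 12 of the PI3 kinase genes fell in place of 8, and 9 of the Atf4 list in place of 5. Depth limits the genes near 1 CPM, where few reads stand behind each value.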

Other observations

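Of 18 tested genes of the circadian clock, which the comparisons above do not describe, 6 rose (33.3%, against 20.6% of all tested genes) and 8 fell (44.4%, against 19.6% of all tested genes) at 6 h against 0 h, with a median log2 fold change of -0.07. Nr1d2 (REV-ERB beta), a repressor of the clock, measured 25.8, 24.7, 23.7 and 26.0 CPM in the 6 h libraries, against 70.1, 73.3, 87.2 and 76.3 CPM in the 0 h libraries (log2 fold change -1.61). Per3 measured 4.98, 5.18, 5.001 and 5.30 CPM in the 6 h libraries, against 18.0, 14.8, 15.8 and 17.9 CPM in the 0 h libraries (log2 fold change -1.70), and Tef, an output factor chosen after its values were seen, measured 42.9, 45.7, 47.6 and 47.3 CPM in the 6 h libraries, against 84.2, 82.3, 81.7 and 76.7 CPM in the 0 h libraries (log2 fold change -0.83). All 3 were lower at 6 h with no overlap between the times. Arntl (BMAL1), which the REV-ERB proteins repress, measured 40.9, 40.6, 36.5 and 37.3 CPM in the 6 h libraries, against 25.5, 21.1, 22.2 and 25.6 CPM in the 0 h libraries (log2 fold change 0.72), and Cry1 measured 32.2, 31.8, 30.1 and 28.5 CPM in the 6 h libraries, against 21.3, 17.9, 22.0 and 18.2 CPM in the 0 h libraries (log2 fold change 0.63); both were chosen after their values were seen and were higher in all libraries. Means at 0, 1, 2, 6 and 24 h were 76.7, 53.2, 36.3, 25.0 and 58.7 CPM for Nr1d2 and 23.6, 22.2, 28.3, 38.8 and 23.9 CPM for Arntl, so that both were nearer to the 0 h level at 24 h than at 6 h. The hour of day at collection was not analysed here, and its part was not tested.

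Of 18 tested interferon response genes, 3 fell (16.7%, near the 19.6% of all tested genes) and 1 rose, and without a filter on low counts 6 fell. Ifit2, which binds viral RNA, measured 19.1, 27.0, 27.3 and 27.3 CPM in the 6 h libraries, against 84.2, 93.8, 107 and 94.7 CPM in the 0 h libraries (log2 fold change -1.92 ± 0.10, adjusted p = 7.92e-14). Ifit3 measured 8.09, 28.6, 9.68 and 17.8 CPM in the 6 h libraries, against 43.7, 46.0, 61.7 and 37.0 CPM in the 0 h libraries (log2 fold change -1.56 ± 0.36, adjusted p = 0.00245). Both were lower without overlap, whereas Ifit1 of the same family, chosen after its values were seen, measured 4.59, 35.1, 4.79 and 17.2 CPM in the 6 h libraries, against 11.8, 11.4, 33.1 and 12.1 CPM in the 0 h libraries and overlapped between the times (log2 fold change -0.15 ± 0.60, adjusted p = 0.867). The member that rose, Mx1, averaged under 1 CPM at both times, and its call was lost without replicate 2 at 6 h.

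The p53 list held falls in Trp53inp1 (log2 fold change -0.86) and in the death receptor Fas (log2 fold change -0.85), beside the fall in Bbc3. Trp53inp1 averaged 125, 48.6, 30.0, 69.0 and 167 CPM at 0, 1, 2, 6 and 24 h, and was thus lowest at 2 h. In the Notch list the ligand Jag1 fell to 22.5 to 24.1 CPM at 6 h, against 38.6 to 40.3 CPM at 0 h (log2 fold change -0.75), and Rfng, an enzyme that glycosylates Notch receptors, rose to 27.3 to 32.2 CPM at 6 h, against 15.7 to 26.1 CPM at 0 h (log2 fold change 0.54).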
